A study of Mus musculus with 15 samples.

Results

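The 6 genes described here encode subunits of the phagocyte NADPH oxidase and were chosen by name: Cybb, Cyba, Ncf1, Ncf4, Rac1 and Rac2, out of 25101 genes in the count tables. The tables came from a study of mouse eosinophils grown in culture. Messenger RNA was sequenced from 2 libraries of bone marrow derived eosinophils (bmEos) of BALB/c mice. Unselected marrow progenitors had been cultured for 14 days, first with stem cell factor and FLT3 ligand (100 ng/mL each, days 0 to 3) and then with 10 ng/mL of interleukin 5, a cytokine that drives eosinophil growth, between days 4 and 14. The labels name no sorting step before RNA extraction, and they do not say that the libraries came from separate animals. Xist, which is transcribed from the inactive X chromosome of female cells, was abundant in replicate 1 and near 0 in replicate 2. The libraries thus did not both come from the same single animal. Whether cells of several animals were pooled, or shared between the libraries, cannot be told from these values. Beside them stood 1 macrophage and 1 neutrophil library of other studies, whose reads the depositors had counted over the same genes. For these outside libraries the sources used here name no strain, treatment or library kit.

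The phagocyte NADPH oxidase moves electrons from NADPH across a membrane to oxygen and so makes superoxide. Its membrane core is a pair of proteins, the catalytic gp91phox (Cybb) and its partner p22phox (Cyba). In resting cells the organiser p47phox (Ncf1) and p40phox (Ncf4) wait in the cytosol, and on stimulation they move to the core together with a Rac GTPase. Rac2 is the Rac form restricted largely to blood cells and Rac1 is found in nearly all cells. Eosinophils are known for a strong respiratory burst, directed in large part at the cell surface.

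The RefSeq promoter table held an entry for 3 of the 6 members, the membrane pair and the organiser, and their 250 bases before the start site are shown because they are the DNA closest to the transcripts compared here. All 3 run on the minus strand of GRCm38.p6: Cybb at chrX:9469325-9469574, Cyba at chr8:122432941-122433190 and Ncf1 at chr5:134229626-134229875. Capitals mark GGAA or its reverse complement TTCC, the core of ETS factor motifs, and GATAA or its reverse complement TTATC, the core of GATA factor motifs, with the GATA core extended by 1 base where the longer AGATAA or its reverse complement was present.
Cybb: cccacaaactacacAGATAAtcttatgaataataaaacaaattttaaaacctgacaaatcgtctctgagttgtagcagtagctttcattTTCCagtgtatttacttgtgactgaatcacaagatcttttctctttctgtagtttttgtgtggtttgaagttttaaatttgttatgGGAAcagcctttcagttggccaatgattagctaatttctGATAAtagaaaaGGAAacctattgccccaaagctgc
Cyba: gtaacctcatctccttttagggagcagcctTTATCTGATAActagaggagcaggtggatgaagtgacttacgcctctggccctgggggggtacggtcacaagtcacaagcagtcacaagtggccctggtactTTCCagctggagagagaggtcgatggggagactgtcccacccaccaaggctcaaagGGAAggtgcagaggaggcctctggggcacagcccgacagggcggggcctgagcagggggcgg
Ncf1: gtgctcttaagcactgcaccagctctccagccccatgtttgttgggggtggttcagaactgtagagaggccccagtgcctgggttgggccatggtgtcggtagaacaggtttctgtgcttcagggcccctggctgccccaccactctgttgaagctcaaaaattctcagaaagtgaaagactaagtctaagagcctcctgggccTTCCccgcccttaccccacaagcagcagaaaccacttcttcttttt
In the Cybb window GATAA lay at bases 235 to 231 and 36 to 32 before the start, and GGAA at bases 75 to 72 and 24 to 21, with TTCC at 161 to 158. The Cyba window held TTATC at bases 220 to 216, GATAA at 214 to 210, TTCC at 118 to 115 and GGAA at 62 to 59. The Ncf1 window held a single TTCC at bases 46 to 43 and neither GATAA nor TTATC. GGAA or TTCC occurred in 93.4% of all 32851 promoter windows of the same length and GATAA or TTATC in 22.6%. The longer AGATAA, on either strand, lay in the Cybb and Cyba windows and in 9.99% of all windows, and AGGAAG, on either strand, lay in none of the 3 members' windows and in 29.5% of all. The short cores were chosen after the windows had been read. These are matches of letters only.

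The bmEos libraries held 40306679 and 30465490 counts, the macrophage library 106940777 and the neutrophil library 6390310. All 11 eosinophil markers listed as a check of the label, among them Epx, Prg2 and Ccr3, were at least 2-fold higher in both bmEos libraries than in either outside library. The 20 macrophage markers summed to 8546 and 10269.5 CPM (the count scaled by the library total) in bmEos. They summed to 22940.5 CPM in the macrophage library and 1475 CPM in the neutrophil library. Of the 20, 18 were higher in the macrophage library than in both bmEos libraries. Mrc1 was not, at 663 and 718 CPM in bmEos against 575 CPM in the macrophage library. Nor was Ly6c2, at 18.2 and 13.5 CPM in bmEos against 16.5 CPM in the macrophage library. Marco, among the 18, had 0 counts in bmEos but also only 0.215 CPM in the macrophage library, so its absence tells little. The 18 neutrophil markers summed to 2882 and 2455 CPM in bmEos, 304 CPM in the macrophage library and 3750 CPM in the neutrophil library, and only 9 of the 18 were above both bmEos libraries in the neutrophil library. Cxcr2 stood at 61.1 and 60.9 CPM in bmEos against 402 CPM in the neutrophil library. S100a8, among the most abundant transcripts of mature neutrophils, stood at 102 and 86.0 CPM in bmEos against 92.2 CPM in the neutrophil library. Of the 18, 9 were at least 2-fold lower in both bmEos libraries and 5 at least 2-fold higher. Ly6g was among the higher, at 388 and 381 CPM in bmEos against 111 CPM in the neutrophil library. Stromal and endothelial markers summed to 4962 CPM in bmEos replicate 1 and 1950 CPM in replicate 2. The part of other cells in the levels below was not tested, and in such bulk samples a larger share of a cell type and more RNA per cell cannot be told apart.

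All 6 oxidase genes were among the abundant transcripts of the eosinophil cultures, where 47.5% of 25075 genes reached 1 CPM in both libraries. Levels are given in CPM, without correction for transcript length, so the order of different genes within a library is not an order of molecules. With 2 bmEos libraries and single outside libraries from other studies, cell type and study cannot be told apart and no p-value is given. Intervals cover counting error only.

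Cybb, the catalytic subunit, stood at 747 and 764 CPM in bmEos replicates 1 and 2, at 1154 CPM in the macrophage library and at 584 CPM in the neutrophil library. The 95% counting intervals of a bmEos fold over the macrophage library ran from 0.640 to 0.656 in replicate 1 and from 0.653 to 0.672 in replicate 2, so both bmEos libraries lay below the macrophage library. Its bmEos mean of 756 ± 12.0 CPM (SD, n = 2, as for all bmEos means) ranked 141 of all genes. Cybb lies on the X chromosome. Its level differed by 1.02-fold between replicates whose Xist levels, the RNA of the inactive X, were 989.9 CPM (replicate 1) and 0.656 CPM (replicate 2).

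Cyba, the stabilising partner of Cybb, stood at 459 and 499 CPM in bmEos, at 432 CPM in the macrophage library and at 113 CPM in the neutrophil library. The bmEos and macrophage levels were close: the bmEos mean, 479 ± 28.0 CPM, was 1.11-fold the macrophage level, and its log2 ratio of 0.15 changed sign to -0.07 with TMM scaling and to -0.13 with scaling by ribosomal protein genes. The bmEos libraries were 4.06-fold and 4.41-fold the neutrophil library, the largest fold of any member, though the direction changed when ribosomal protein genes set the scale (log2 -0.59).

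Ncf1, the organiser that bridges the cytosolic subunits to Cyba, was the highest member in CPM in bmEos, with 1413 and 1494 CPM, against 695 CPM in the macrophage library and 392 CPM in the neutrophil library. Its bmEos mean of 1454 ± 57.4 CPM ranked 46 of all genes. Both bmEos libraries were at least 2-fold above both outside libraries, which held for Ncf1 and Rac2, 2 of the 6 members, and for 9.94% of 12523 genes. The call over the macrophage library depended on the scale. The mean log2 ratio of Ncf1 was 0.96 with DESeq2 size factors and 0.84 with TMM factors, and it was not called with these or with ribosomal protein genes. Rac2 was called with DESeq2 size factors but not with TMM factors or ribosomal protein genes. With ribosomal protein genes the log2 ratios over the neutrophil library were -0.78 for Ncf1 and -1.21 for Rac2.

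Ncf4, which binds a membrane phosphoinositide and sustains oxidase activity on phagosomes, stood at 390 and 467 CPM in bmEos, against 155 CPM in the macrophage library and 197 CPM in the neutrophil library. The bmEos mean was 428 ± 54.7 CPM. It was the member that differed most between the bmEos libraries, by 1.20-fold, and 21.4% of the 11908 detected genes lay further apart. Against the neutrophil library replicate 1 was just under the 2-fold limit at 1.98-fold and replicate 2 above it at 2.37-fold. With TMM factors or DESeq2 size factors Ncf4 was called higher there, and with ribosomal protein genes it was called lower.

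Rac2 stood at 1010 and 1109 CPM in bmEos, against 449.6 CPM in the macrophage library and 383 CPM in the neutrophil library. Its bmEos mean of 1059.7 ± 70.4 CPM ranked 81. Rac1 stood at 309 and 327 CPM in bmEos, against 448 CPM in the macrophage library and 227 CPM in the neutrophil library, with a bmEos mean of 318 ± 12.3 CPM. The Rac genes thus lay in opposite order to the macrophage library, with Rac2 higher and Rac1 lower in both bmEos libraries, as they did with each of the 4 other scalings tried. Against the neutrophil library both Rac genes were higher in bmEos, except with scaling by ribosomal protein genes, where both were lower.

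**Figure D1:**
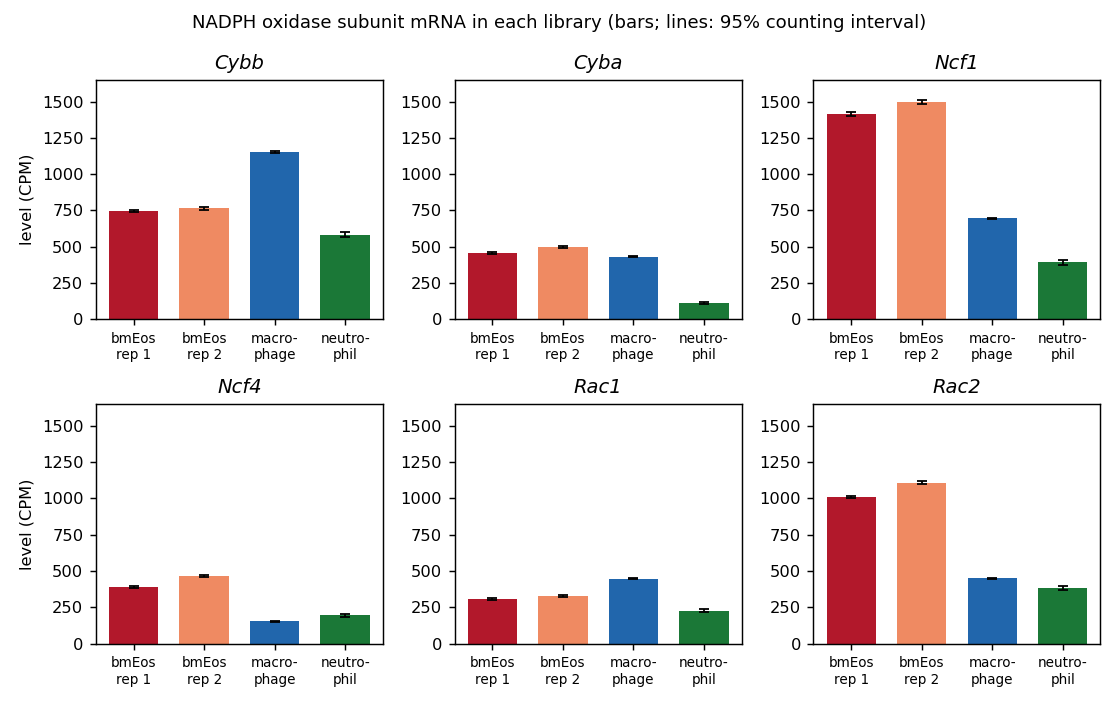
Level in CPM (vertical axis) of each NADPH oxidase gene in each library; bars are single libraries and lines their 95% counting intervals. The bmEos bars of Cyba, Ncf1, Ncf4 and Rac2 stand above both outside libraries. Those of Cyba, at 459 and 499 CPM, are close to the macrophage bar at 432 CPM. Cybb and Rac1 are highest in the macrophage library, at 1154 and 448 CPM. With scaling by ribosomal protein genes the 6 genes would lie lower in bmEos than in the neutrophil library.

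The bmEos libraries were close to each other for these genes. Every member was higher in replicate 2, by 1.02-fold for Cybb to 1.20-fold for Ncf4, whereas 34.1% of detected genes were higher there. Among the 2444 detected genes with a mean of at least 100 CPM, the range in which the members lie, 54.7% were higher in replicate 2. Eosinophil markers were higher in replicate 2 in 8 of 11 cases, with a sum of 14145 CPM against 13837 CPM in replicate 1. Neutrophil markers were higher there in 5 of 18 cases, with a sum of 2455 CPM against 2882 CPM in replicate 1. The 20 macrophage markers were higher in replicate 2 in 13 cases. Their sum was 10269.5 CPM in replicate 2 against 8546 CPM in replicate 1. All 15 stromal and endothelial markers were lower in replicate 2. Of 9 dendritic and B cell markers 8 were higher in replicate 2, with a sum of 682 CPM against 443 CPM in replicate 1, and of 10 mast cell and basophil markers 0 were higher, with a sum of 169.8 CPM in replicate 2 against 266 CPM in replicate 1. The part of these cells in the difference was not tested.

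Of the 6 members, 3 were at least 2-fold higher in both bmEos libraries than in the macrophage library, namely Ncf1, Ncf4 and Rac2, and 0 were at least 2-fold lower. Among 12745 genes with at least 1 CPM in any of these libraries, 25.4% were higher by this rule and 16.9% lower, so 3 of 6 cannot be read as particular to the oxidase. In log2 units of the bmEos over macrophage ratio, Ncf4 stood at 1.46 ± 0.18, Rac2 at 1.24 ± 0.10, Ncf1 at 1.06 ± 0.06, Cyba at 0.15 ± 0.08, Rac1 at -0.49 ± 0.06 and Cybb at -0.61 ± 0.02, where the SD is over the bmEos libraries. The median of the members was 0.61 and that of all genes tested 0.06. Ncf1, Rac2 and Ncf4 lay between the 73.2 and 79.0 percentile of all genes, Cybb at the 28.8 percentile. The part of macrophage-like cells in these ratios was not tested; the summed macrophage markers are given above.

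Each scaling applies 1 factor to a library, so it shifts all members of this comparison together and cannot change their order. The median of all genes tested was 0.06 with library totals, -0.17 with TMM factors, -0.05 with DESeq2 size factors and -0.25 with ribosomal protein genes. Relative to the median of all genes, over these settings and the total without top genes, Ncf4 lay between 1.39 and 1.43, Rac2 between 1.17 and 1.21, Ncf1 between 1.00 and 1.04, Cyba between 0.08 and 0.12, Rac1 between -0.56 and -0.52 and Cybb between -0.68 and -0.63. Ncf1 was at the edge of the 2-fold rule: TMM factors left Ncf4 alone past it. Among all genes the split of higher and lower calls was 22.1% against 22.0% with TMM factors and 20.2% against 23.8% with ribosomal protein genes.

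Against the neutrophil library, 3 of 6 members, Cyba, Ncf1 and Rac2, were at least 2-fold higher in both bmEos libraries and 0 were at least 2-fold lower, where 27.7% of 12978 genes were called higher and 23.9% lower, a split that was 33.1% against 17.4% with TMM factors. Their log2 ratios were 2.08 ± 0.08 for Cyba, 1.89 ± 0.06 for Ncf1 and 1.47 ± 0.10 for Rac2, with Ncf4 at 1.12 ± 0.18, Rac1 at 0.48 ± 0.06 and Cybb at 0.37 ± 0.02. The neutrophil library was unlike the others in its make-up. Its leading genes, Sorl1 and Plec, stood at only 1196 and 1171 CPM, the 20 top genes took 5.81% and 6.40% of counts in bmEos against 1.89% in the neutrophil library, and 75 of 76 ribosomal protein genes were at least 2-fold higher in bmEos. Their median log2 ratio was 2.61, above that of every member. When ribosomal protein genes set the scale, 0 members were called higher, and 4, Cybb, Ncf4, Rac1 and Rac2, were called lower, as were 78.0% of all genes, with 5.15% called higher. This scale was added after the data had been seen. The part of library make-up in the members' ratios was not tested. The direction of each difference from the neutrophil library depends on the scale, and of the 5 scalings ribosomal protein genes alone reversed it. Relative to the median of all genes, over these scalings, Cyba lay between 2.14 and 2.26, Ncf1 between 1.95 and 2.07 and Rac2 between 1.53 and 1.64. Ncf4 lay between 1.18 and 1.30, Rac1 between 0.55 and 0.66 and Cybb between 0.43 and 0.55.

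**Figure D2:**
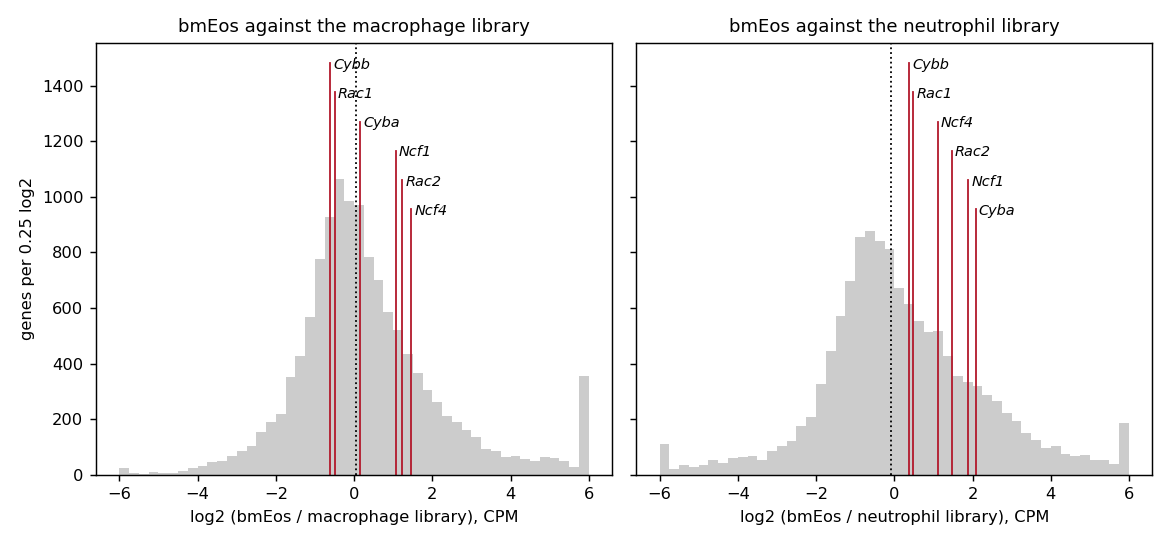
Distribution of the log2 ratio of bmEos (mean of 2 libraries) over the macrophage library (left) and the neutrophil library (right) for all genes tested, in bins of 0.25 with values beyond 6 placed in the end bins; red lines are the members and the dotted line the median. Cybb and Rac1 sit next to each other at the low end of the members in both panels; the positions against the neutrophil library shift below 0 with scaling by ribosomal protein genes.

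**Figure D3:**
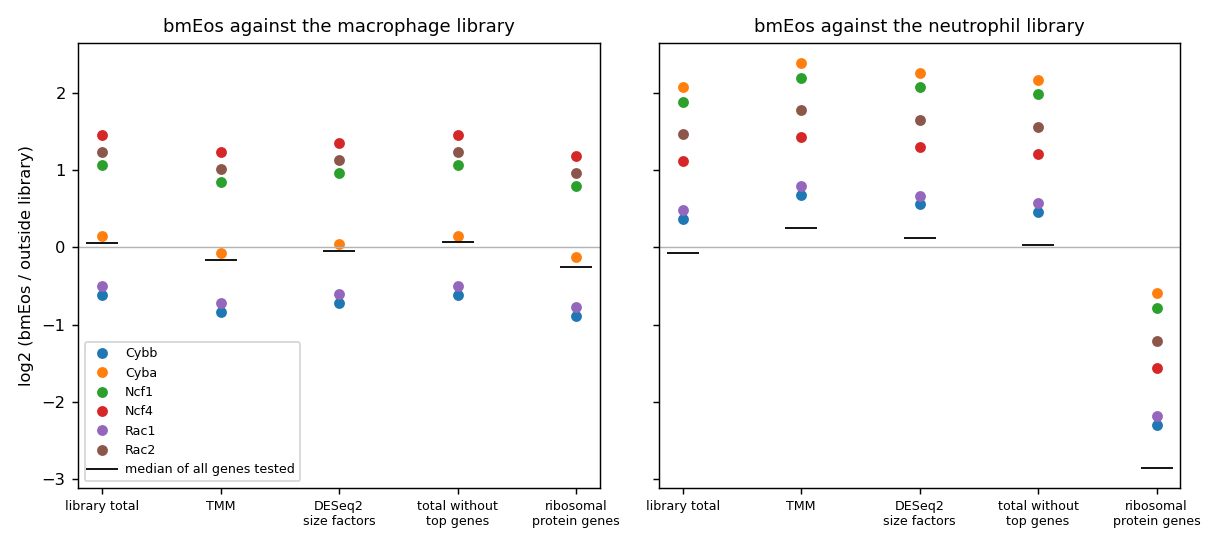
The log2 ratio of bmEos over each outside library (vertical axis) for the 6 members and for the median of all genes tested (black dash) under 5 scalings (horizontal axis). Against the macrophage library the points shift together, as each scaling applies 1 factor to a library, with the median of all genes between -0.25 and 0.07; against the neutrophil library all members fall below 0 with ribosomal protein genes, where the median of all genes is -2.85.

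Ratios between subunits within a library need no scaling between libraries. As no transcript lengths were at hand, such a count ratio is not a ratio of molecules, but the length drops out when the same ratio is compared between libraries that share the same bias by length and make-up. Whether the outside libraries share it was not tested, and the neutrophil library is unlike the others in its make-up, so its ratios carry that limit too. For each Cybb count, bmEos had 0.614 and 0.653 Cyba counts, the macrophage library 0.375 and the neutrophil library 0.194. Cyba counts per Cybb count in bmEos were thus 1.64-fold and 1.74-fold the macrophage value and 3.17-fold and 3.37-fold the neutrophil value. Against the macrophage library, the log2 ratio was -0.61 for Cybb, 0.15 for Cyba and 0.06 for the median of all genes. A typical gene thus also had more counts per Cybb count in bmEos, and Cyba lay at the 52.7 percentile. The macrophage ratio cannot be read as particular to the core pair. Against the neutrophil library Cyba lay at the 83.0 percentile and Cybb at the 59.0 percentile.

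The organiser and Rac2, like Cyba and Ncf4, stood higher against the catalytic subunit in bmEos than in either outside library. Ncf1 counts per Cybb count were 1.89 and 1.96 in bmEos, 0.602 in the macrophage library and 0.671 in the neutrophil library, so that bmEos had 3.14-fold and 3.25-fold more than the macrophage library and 2.82-fold and 2.91-fold more than the neutrophil library. Of all other genes, 37.8% had at least a 2-fold higher count per Cybb count in both bmEos libraries than in the macrophage library, and 22.6% than in the neutrophil library, while 8.55% and 33.5% were at least 2-fold lower in bmEos than in the macrophage and neutrophil libraries. Rac2 per Cybb was 1.35 and 1.45 in bmEos, 0.390 in the macrophage library and 0.657 in the neutrophil library. Both bmEos values lay at least 2-fold above each outside value. As 37.8% of all other genes passed the same limit, the macrophage ratios of Ncf1 and Rac2 cannot be read as particular to them.

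Ncf4 followed Ncf1 only in part. Ncf4 per Cybb was 0.521 and 0.611 in bmEos, against 0.135 in the macrophage library and 0.337 in the neutrophil library, which was 3.87-fold and 4.54-fold the macrophage value and 1.55-fold and 1.81-fold the neutrophil value. Between the cytosolic pair, Ncf4 per Ncf1 was 0.276 and 0.312 in bmEos, 0.223 in the macrophage library and 0.502 in the neutrophil library. The bmEos ratio thus lay above the macrophage and below the neutrophil library, in both bmEos libraries and by more than the counting intervals, and in neither case by 2-fold. Per Ncf1 count, 12.9% of all other genes were at least 2-fold higher and 46.9% lower in bmEos than in the macrophage library, and 8.69% higher and 65.5% lower than in the neutrophil library.

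The balance of the Rac genes also differed. Rac2 per Rac1 was 3.26 and 3.40 in bmEos, 1.00 in the macrophage library and 1.69 in the neutrophil library. Rac2 took 76.5% of the Rac1 and Rac2 counts in bmEos replicate 1 (95% exact binomial interval 76.2 to 76.9%) and 77.2% in replicate 2 (76.9 to 77.6%), against 50.1% in the macrophage library (49.8 to 50.4%) and 62.8% in the neutrophil library (61.2 to 64.3%). Compared with all other genes, 34.9% had a count per Rac1 count at least 2-fold higher in both bmEos libraries than in the macrophage library and 20.9% than in the neutrophil library, with 9.58% and 36.1% at least 2-fold lower. Against the neutrophil library Rac2 per Rac1 was 1.93-fold and 2.01-fold, with replicate 1 just under the limit. Rac1 and Rac2 are close paralogs, and how reads shared by them were counted is not given in the sources used here.

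**Figure D4:**
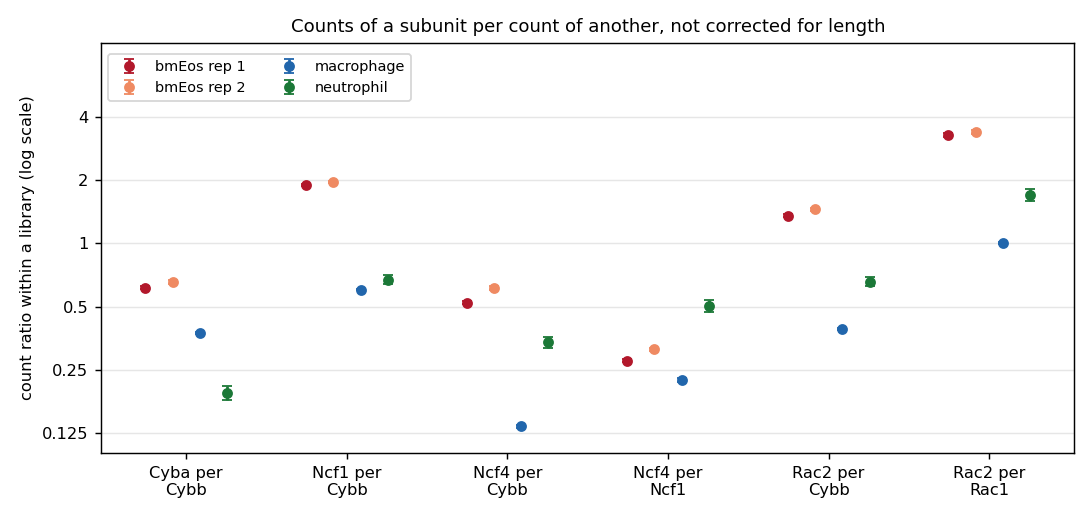
Counts of a subunit per count of another within each library (log axis); points are single libraries and lines 95% counting intervals, not corrected for transcript length. The bmEos points for Ncf1 per Cybb, at 1.89 and 1.96, and for Rac2 per Rac1, at 3.26 and 3.40, lie above both outside libraries, whereas Ncf4 per Ncf1 lies between them.

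By the distance between log2(CPM + 1) profiles over the 3 cell types, each centred on its own mean, Cybb and Rac1 were the closest pair of members at 0.09, followed by Ncf4 and Rac2 at 0.41 and Ncf1 and Rac2 at 0.43. The farthest pair was Cyba and Ncf4 at 1.61. Among 10234 genes with at least 10 CPM in a library, the nearest to Cybb were Arf4 and Mtx1, to Cyba Stmn1 and Krtcap2, to Ncf1 Fkbp3, to Ncf4 Ube2c and F13a1, to Rac1 1110004F10Rik and Eif4g1, and to Rac2 Bora and Pfkp, all within 0.05. With 3 cell types many genes share a profile, and with a pseudocount of 5 no member kept both of its nearest genes.

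The wider pathway was described with 6 lists of 70 genes, of which 60 were detected in bmEos. Of the 61 tested against the macrophage library 11 were called higher and 9 lower in bmEos, and of the 60 tested against the neutrophil library 24 were called higher and 7 lower, beside the shares of all genes given above; the limits of scale given for the neutrophil library hold for these lists too. Of 10 other genes of the oxidase family 2 were detected. Nox1, Nox3, Noxa1, Duox1, Duox2 and Duoxa2 had 0 counts in both bmEos libraries, where 3 counts would equal 0.0744 and 0.0985 CPM, and Nox4 stood at 0.198 and 0.131 CPM. Noxo1, the homologue of Ncf1 that serves Nox1, was detected at 4.14 and 3.64 CPM, against 1.57 CPM in the macrophage library and 0.782 CPM in the neutrophil library. The neutrophil value of Noxo1 rests on 5 counts, so the size of that difference is loosely set. Rac3, the third Rac gene, stood at 5.76 and 4.07 CPM in bmEos and 4.33 CPM in the macrophage library, with 0 counts in the neutrophil library, where 3 counts equal 0.469 CPM.

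All 13 chaperone and switch regulators were detected. In bmEos 1 was called higher and 2 lower than in the macrophage library, where 25.4% and 16.9% of all genes were. Against the neutrophil library 4 were called higher and 2 lower, where 27.7% and 23.9% of all genes were. The list's median log2 ratio was -0.27 against the macrophage library and -0.36 against the neutrophil library. The medians of all genes tested were 0.06 and -0.07. Cybc1, the chaperone that the core pair needs for its stability, stood at 102 and 107.3 CPM in bmEos, 126 CPM in the macrophage library and 200 CPM in the neutrophil library. The exchange factor gene Vav1, which loads Rac with GTP, was 2-fold or more lower than in either outside library, at 129 and 118 CPM in bmEos against 486 CPM in the macrophage library and 375 CPM in the neutrophil library. Vav2 stood at 23.0 and 25.4 CPM in bmEos, 88.9 CPM in the macrophage library and 4.54 CPM in the neutrophil library, and Vav3 at 57.5 and 62.1 CPM in bmEos, 61.7 and 223 CPM in the macrophage and neutrophil libraries. Dock2, another Rac activator of blood cells, was at 475 and 477 CPM in bmEos, 883 CPM in the macrophage library and 592 CPM in the neutrophil library. Arhgap15, which switches Rac off, stood at 117 and 116 CPM in bmEos, against 26.0 CPM in the macrophage library and 208 CPM in the neutrophil library. Arhgdia and Arhgdib, which hold Rac in the cytosol, had the highest CPM of the list in bmEos. Arhgdia stood at 718 and 762 CPM in bmEos, 929 CPM in the macrophage library and 226 CPM in the neutrophil library, and Arhgdib at 689 and 728 CPM in bmEos, 512 CPM in the macrophage library and 191 CPM in the neutrophil library. Cdc42, a GTPase related to Rac, stood at 604 and 627 CPM in bmEos, 723 CPM in the macrophage library and 274 CPM in the neutrophil library.

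The 12 kinases and lipases were all detected. In bmEos 3 were called higher and 1 lower than in the macrophage library, where 25.4% and 16.9% of all genes were. Against the neutrophil library 2 were called higher and 2 lower, where 27.7% and 23.9% of all genes were. Prkca, a protein kinase C that can phosphorylate p47phox, stood out at 149 and 156 CPM in bmEos, against 4.44 CPM in the macrophage library and 1.25 CPM in the neutrophil library. This gap, 34.4-fold and 122-fold for the mean of bmEos, was larger than that of any member. The 122-fold value rests on 8 counts in the neutrophil library, so its size is loosely set. Its relatives were closer: Prkcd stood at 711 and 740 CPM in bmEos, 596 CPM in the macrophage library and 330 CPM in the neutrophil library. Pla2g4a, the phospholipase that frees arachidonic acid, stood at 112 and 116 CPM in bmEos, 9.09 CPM in the macrophage library and 129 CPM in the neutrophil library. Pak1, a kinase activated by Rac, was lower, at 24.96 and 17.4 CPM in bmEos against 96.8 and 177 CPM in the macrophage and neutrophil libraries, and Pik3cg stood at 217 and 210 CPM in bmEos, 206 and 507 CPM in those libraries. The list's highest gene, the tyrosine kinase Syk, stood at 834 and 941 CPM in bmEos, 774 and 621 CPM in those libraries. Akt1 stood at 482 and 529 CPM in bmEos, 394 and 271 CPM in those libraries, and Pik3cd at 482 and 523 CPM in bmEos, 354 and 499 CPM in those libraries.

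Superoxide turns into hydrogen peroxide, the substrate of peroxidases. Epx, the eosinophil peroxidase, stood at 2883 and 2649 CPM in bmEos, while the macrophage library held 4 counts and the neutrophil library 53.0 CPM. Mpo, the peroxidase of neutrophils and monocytes, was at 23.5 and 26.7 CPM in bmEos, 4.01 CPM in the macrophage library and 2.66 CPM in the neutrophil library, and Lpo had 0 counts in bmEos. Hvcn1, the proton channel that balances the charge moved by the oxidase, stood at 68.7 and 77.8 CPM in bmEos, 97.9 CPM in the macrophage library and 47.4 CPM in the neutrophil library, within 2-fold of both.

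NADPH, the electron donor, comes mainly from the pentose phosphate pathway. All 11 supply genes were detected. In bmEos 2 were called higher and 1 lower than in the macrophage library, beside 25.4% and 16.9% of all genes. Against the neutrophil library 4 were called higher and 1 lower, beside 27.7% and 23.9% of all genes. Taldo1, of the non-oxidative arm, stood at 702 and 760 CPM in bmEos, against 314 CPM in the macrophage library and 180 CPM in the neutrophil library. G6pdx, which catalyses the first step, stood at 311 and 297 CPM in bmEos, 468 CPM in the macrophage library and 337 CPM in the neutrophil library. Rpia stood at 60.5 and 56.2 CPM in bmEos, 16.5 and 65.7 CPM in the macrophage and neutrophil libraries. Idh1, a cytosolic NADPH source, was lower than in the macrophage library, at 120 and 131 CPM in bmEos against 335 CPM, and Nadk, the kinase that makes NADP, was lower than in the neutrophil library, at 137 and 137 CPM in bmEos against 382 CPM. Tkt stood at 694 and 723 CPM in bmEos, 531 and 300.3 CPM in the macrophage and neutrophil libraries, and Pgd, which also yields NADPH, at 565 and 588 CPM in bmEos, 696 and 309 CPM in those libraries. The NADPH sources Idh2 and Me1 were higher than in the neutrophil library: Idh2 stood at 93.9 and 82.0 CPM in bmEos against 6.42 CPM, and Me1 at 8.51 and 3.51 CPM in bmEos against 0.156 CPM, a single count.

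Of 20 genes that remove superoxide and peroxide 19 were detected. Against the macrophage library 2 were called higher and 5 lower, where 25.4% and 16.9% of all genes were. Against the neutrophil library 10 were called higher and 2 lower, where 27.7% and 23.9% of all genes were, and these calls depend on the scale. Gpx1, a glutathione peroxidase, stood at 673 and 757 CPM in bmEos, with 401 CPM in the macrophage library and 110 CPM in the neutrophil library, and Cat, the catalase gene, stood at 417 and 442 CPM in bmEos, 365 and 112 CPM in those libraries. Sod2, the mitochondrial dismutase, was lower than in both, at 36.9 and 29.6 CPM in bmEos against 83.6 CPM in the macrophage library and 154 CPM in the neutrophil library. Gsr, which restores glutathione with NADPH, stood at 173 and 173 CPM in bmEos, 72.5 CPM in the macrophage library and 323 CPM in the neutrophil library. Nqo1 stood at 43.9 and 71.6 CPM in bmEos against 4.62 CPM in the macrophage library and 35.1 CPM in the neutrophil library. Gpx3, a secreted glutathione peroxidase, stood at 58.5 and 59.2 CPM in bmEos, 220 CPM in the macrophage library and 3.44 CPM in the neutrophil library. Prdx4 stood at 40.5 and 32.1 CPM in bmEos, 80.8 and 2.35 CPM in those libraries, and Sod3, the extracellular dismutase, at 0.198 and 0.197 CPM in bmEos, 2.71 CPM in the macrophage library and 0 counts in the neutrophil library. Gpx4 stood at 321 and 342 CPM in bmEos, 188 and 87.6 CPM in the macrophage and neutrophil libraries, and Prdx5 at 326 and 324 CPM in bmEos, 186 and 124.9 CPM in those libraries. Gclm, of glutathione synthesis, was lower than in the neutrophil library, at 76.4 and 78.1 CPM in bmEos against 210.3 CPM.

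**Figure D5:**
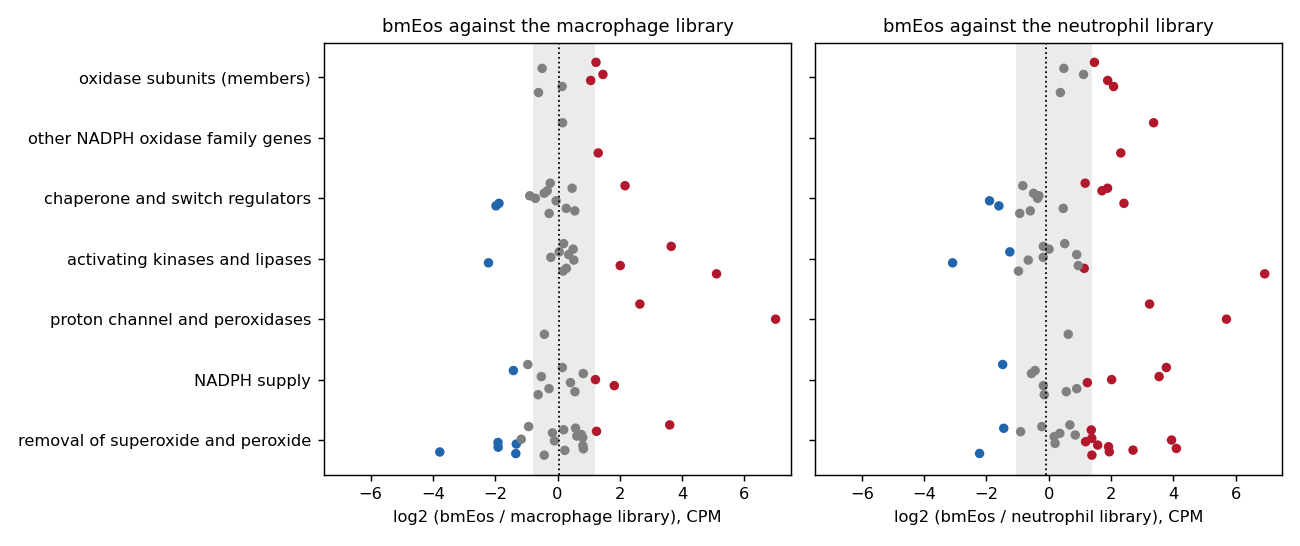
The log2 ratio of bmEos over the macrophage library (left) and the neutrophil library (right) for the oxidase subunits and the genes of each pathway list that were tested, one point a gene; red and blue points were at least 2-fold higher or lower in both bmEos libraries, the grey band holds the middle of all genes (25 to 75 percentile), the dotted line is their median, and values beyond 7 are drawn at 7. The 6 subunits spread from -0.61 to 1.46 on the left and from 0.37 to 2.08 on the right, where scaling by ribosomal protein genes would shift all points to the left.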

How the data were processed

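RNA libraries were made with a stranded messenger RNA kit, per the labels' protocols. The authors deposited raw counts per gene, whole numbers without normalization, 1 table a library. Per the submitters' processing notes STAR 2.5, featureCounts and the build mm9 are named, without settings, so strand and the treatment of shared reads are not known here. The macrophage and neutrophil tables are 2 columns of no sample in this series, used as single values with no SD or n. Their cell types are as designated for this work and were looked at with markers. The neutrophil markers gave a mixed result: of 18, 9 were called lower and 5 higher in bmEos than in the neutrophil library. CPM is a count over the table's total. Of 25101 gene names, 26 had become dates in the outside files, and those rows were left out of gene comparisons.

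A gene was called when both bmEos libraries were at least 2-fold above, or below, an outside library in CPM, among genes with 1 CPM or more in at least 1 of the 3 libraries; counts under 3 were set to 3. No p-value was computed. Log2 ratios average the bmEos libraries. Intervals are exact, at 95%. In R 4.3.3, DESeq2 1.42.0 gave size factors and edgeR 4.0.16 gave TMM factors; other steps used Python 3.11.15, pandas 2.3.3 and scipy 1.17.1, tested on simulated data. Named genes are all members, the leading, most differing and zero-count genes of each list, and the nearest profiles; Cybc1, Nox4, Xist, Sorl1, Plec and the cell markers named fall outside this and were chosen after their values were seen. One gene that the rule takes is not reported here. Members and lists were chosen with earlier results of these data known. Lengths per gene were not used here, so subunit ratios are of counts. The peak lists are in mm9, for which no annotation was at hand, and are not analysed here. Not every oxidase subunit is covered.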

Additional observations from a re-analysis of the deposited data

How the results depend on the processing

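The count of members called higher than in the macrophage library, 3, was 1 with TMM scaling and 1 with ribosomal protein scaling, each time Ncf4 alone, and 0 with a 4-fold call; with a 1.5-fold call 1 member, Cybb, was called lower. The count called higher than in the neutrophil library, 3, was 1 with a 4-fold call and 0 with ribosomal protein scaling, where 4 were called lower and the log2 ratios of Cyba, Ncf1 and Rac2 turned to -0.59, -0.78 and -1.21; 75 of the 76 genes behind that scale differ 2-fold between the libraries, and the cause was not tested. The other 33 of 40 alternatives for these counts, replicates left out included, stayed within 1.5 times, but the genes called could change. Against the neutrophil library Ncf4 joined, for a count of 4, with TMM factors, DESeq2 size factors and the total without top genes. It also joined with a 1.5-fold call and with replicate 1 left out. Against the macrophage library DESeq2 size factors left 2, Ncf4 and Rac2. Subunit ratios from either replicate alone are those printed per library and kept their direction. With a pseudocount of 5, 1 of the 2 nearest profiles was shared for Cybb and Ncf4 and 0 for the other members. Ribosomal protein scaling was chosen after seeing the data. No paired analysis was possible because the RNA libraries form a single group. Lengths were not at hand, so the comparison per kilobase was not run. The neutrophil library's depth puts 3 counts at 0.469 CPM, which limits its low genes and no member.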
